A study of Mus musculus with 4 samples.

Results

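The 5p arms of the miR-1a and miR-133a loci were followed in chimeric eCLIP-seq of mouse plantaris muscle after mechanical overload (MOV). The members were all peaks that the control-injected and mimic-injected libraries gave to mmu-miR-133a-5p, mmu-miR-1a-1-5p or mmu-miR-1a-2-5p. They made up 660 of 93468 peaks in the control library and 1018 of 100897 peaks in the mimic library. A peak here is 1 target interval listed for 1 miRNA, so the same interval is counted once for each miRNA found in it. These 3 of the 659 miRNA names in the series were selected on their names, with their peak and read numbers in both libraries already known. Every difference in those numbers is therefore a description of the members, and no test was made.

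In chimeric eCLIP-seq, UV light crosslinks RNA to Ago2, the protein that holds a miRNA on its target. After immunoprecipitation of Ago2, miRNA and target fragment are joined into 1 chimeric molecule, which is sequenced. Both libraries came from the plantaris of adult male C57BL/6J mice, 5 months old, 10 days after bilateral removal of part of the gastrocnemius-soleus complex. At surgery the left plantaris had received the control TurboGFP lentivirus and the right plantaris the same kind of lentivirus carrying a miR-1a-3p mimic behind a CMV promoter, which is active in many cell types. Each group held 1 library, so left and right limb, library preparation and mimic cannot be told apart, and the variation between animals is unknown. The 2 input libraries were not analysed here. All 10 skeletal muscle fibre markers had peaks in both libraries. Of the 5 cardiac markers, 1 had peaks in the control library and 2 in the mimic library. All 5 fibroblast markers, 3 and 4 of 5 endothelial markers, 3 and 4 of 5 immune markers, and 1 of 4 satellite cell markers in each had peaks too. In such whole muscle, fewer cells of a type and less RNA per cell cannot be told apart.

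The miR-1 and miR-133a hairpins lie in pairs on the same primary transcripts, which are made in striated muscle. Each hairpin is cut into a duplex, and in these families the 3p strand is the one usually kept by Ago2, while the 5p strand is usually discarded. miR-1 and miR-133a are known for their part in the growth and differentiation of muscle, and what is known of their targets rests on the 3p strands. The mimic in this study carries the sequence of miR-1a-3p. A 5p arm joined to a target fragment in this assay was therefore the less usual strand of its duplex.

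The mature sequence in RefSeq (GRCm38.p6) was found for 1 of the 3 members, and it is shown here with the 5p arms of the related miR-206 and miR-133b hairpins, since names among such relatives can be hard to separate. Capitals mark the seed, bases 2 to 8 from the 5′ end, which pairs first with a target.
miR-1a-1-5p: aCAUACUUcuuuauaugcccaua
miR-206-5p: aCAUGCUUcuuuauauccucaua
miR-133b-5p: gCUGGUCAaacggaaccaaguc
miR-1a-1-5p lies at chr2:180389057-180389079 on the plus strand. miR-206-5p (chr1:20679017-20679039, plus strand) has the same length of 23 bases and differs from it at 3 positions, written from miR-1a-1-5p to miR-206-5p and counted from the 5′ end as A5G, G17C and C19U. The first of these is in the seed, so their seeds are not shared. Among the mature sequences that were found, no other has the seed of miR-1a-1-5p. Those of miR-1a-2-5p and miR-133a-5p were not among them, so whether either has this seed could not be seen. miR-133b-5p (chr1:20682797-20682818, plus strand) has the seed CUGGUCA. miR-206-5p had 2 peaks in the control library and 4 in the mimic library, and miR-133b-5p had 15 and 10, so few peaks of either library went to these relatives. How the authors chose between near-identical names, such as miR-1a-1-5p and miR-1a-2-5p, was not stated, and the split between these names is uncertain.

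The values are estimated counts of chimeric reads, mostly not whole, and no scaling to depth was stated. There were 20754 distinct peak intervals with 232408 chimeric reads in the control library. The mimic library had 21872 intervals with 259207 reads, and the ratio between the totals was 1.12. Where a share of all peaks that list a miRNA is given, each distinct peak interval is counted once. Each interval in brackets below is a 95% interval. For reads and their ratios it covers counting error on reads rounded to whole numbers. For shares of peaks it takes the peaks as independent. For median log2 ratios it comes from the ranked values of the peak pairs, also taken as independent. None of these says anything of variation between animals or preparations. Where a pair of values is given without a library name, the control comes first.

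All 3 5p arms had more reads in the mimic library. miR-133a-5p had 670 reads in 482 control peaks (620 to 723) against 989 reads in 756 mimic peaks (928 to 1053), a ratio of 1.48 (1.34 to 1.63). miR-1a-1-5p had 86.4 reads in 106 control peaks (68.8 to 106) against 128 reads in 140 mimic peaks (107 to 152), also a ratio of 1.48 (1.12 to 1.98). miR-1a-2-5p had 55.4 reads in 72 control peaks (41.4 to 71.6) against 96.9 reads in 122 mimic peaks (78.7 to 118), a ratio of 1.75 (1.25 to 2.50). The counting intervals of the 3 ratios lay above the ratio between library totals, that of miR-1a-1-5p by a very small margin. The 3p arms, which gave far more reads, stood closer to that ratio. miR-1a-3p went from 27411 to 35876 reads, a ratio of 1.31 (1.29 to 1.33), and miR-133a-3p went from 42768 to 52291 reads, a ratio of 1.22 (1.21 to 1.24). Since the mimic adds miR-1a-3p itself, the ratio of miR-1a-3p is not that of the muscle's own strand alone.

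As background, 148 miRNAs had at least 50 peaks in each library. Their median ratio of reads was 1.06, with 90% of them between 0.764 and 1.46, and 3.38% of them, 5 miRNAs, were above 1.5-fold. Of the members only miR-1a-2-5p passed 1.5-fold in reads, but miR-1a-2-5p was 3rd, miR-1a-1-5p 6th and miR-133a-5p 8th of the 148 from the top. By number of peaks, 3.38% of the miRNAs were again above 1.5-fold, and the members stood at 1.69 for miR-1a-2-5p, 1.57 for miR-133a-5p and 1.32 for miR-1a-1-5p. The members were picked with this order known, so their places in it describe the choice.

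**Figure D1:**
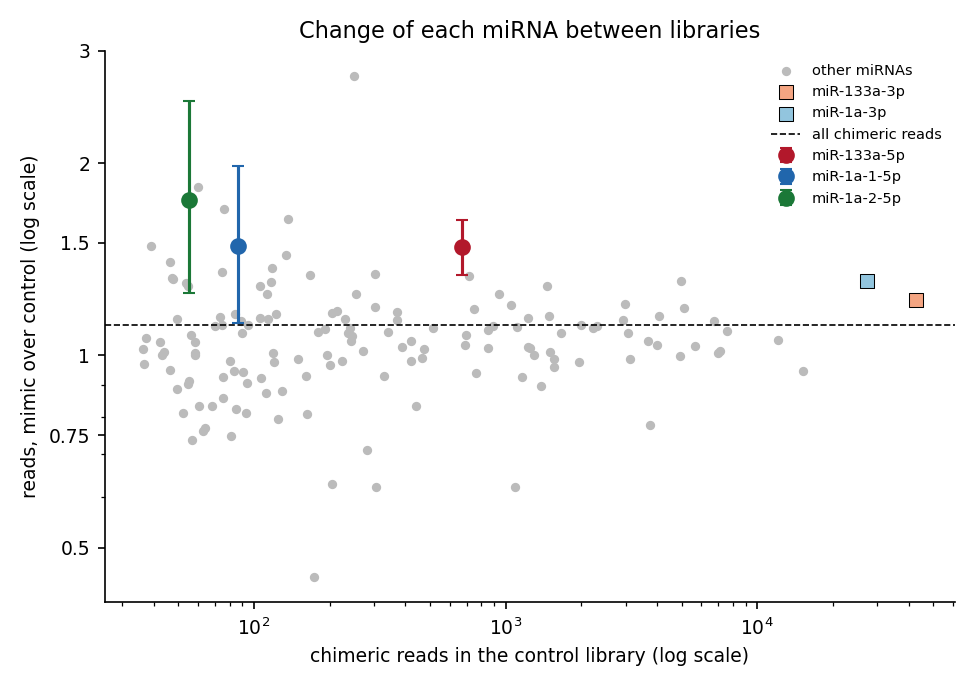
Ratio of chimeric reads in the mimic over the control library (log scale) against reads in the control library (log scale) for 148 miRNAs with at least 50 peaks in each. The 3 5p arms (circles with 95% counting intervals) lie at 1.48, 1.48 and 1.75, above the 3p arms (squares, 1.31 and 1.22) and above the dashed line of all reads at 1.12.

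Each 5p arm was small beside its 3p partner. miR-133a-5p gave 1.57 reads per 100 reads of miR-133a-3p in the control library (1.45 to 1.69) and 1.89 in the mimic library (1.77 to 2.01), and these counting intervals did not overlap. The miR-1a 5p arms together gave 0.517 reads per 100 reads of miR-1a-3p in the control library (0.436 to 0.611) and 0.628 in the mimic library (0.548 to 0.715), and these intervals overlapped. Over 95 loci with both arms listed, the minor arm gave a median of 1.36 reads per 100 of the major arm in the control library and 1.54 in the mimic library, so miR-133a was near the middle of the loci and miR-1a below it. The mimic value was 1.21 times the control value for miR-133a and also 1.21 times for miR-1a. Among the 9 loci whose minor arm had at least 50 reads in both libraries, 6 had a higher value in the mimic, the median was 1.15, and 4 of the 9, miR-133a included, were at or above miR-133a. In the mimic library the added miR-1a-3p is part of the denominator for miR-1a.

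The arms of a locus differed in how many of their reads lay on the mitochondrial genome. For miR-1a-3p, 31.6% of reads lay on the mitochondrial chromosome in both libraries, against 4.23% and 2.27% of the miR-1a 5p reads in the control and the mimic. miR-133a had the opposite order, with 22.3% and 19.1% of the 5p reads there against 1.99% and 2.26% of the 3p reads. Without the mitochondrial chromosome and rRNA genes, miR-133a-5p per 100 reads of miR-133a-3p was 1.19 in the control library and 1.5 in the mimic library.

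miR-133a-5p was by far the most frequent 5p arm, and 2 sites led it. The first lay in ND5, a mitochondrially encoded subunit of respiratory complex I, at chrM:13122-13228 in the control library and chrM:13110-13227 in the mimic library, inside the span of the gene (chrM:11742-13565). It held 108 reads of miR-133a-5p in the control library (88.6 to 130) and 129 in the mimic library (108 to 153), a ratio of 1.2 (0.918 to 1.56). The site alone made up 16.0% of all miR-133a-5p reads of the control and 13.0% of those of the mimic. miR-133a-3p had only 7.70 and 9.05 reads in it, so the usual order of the arms was turned around. At this site miR-133a-5p came after miR-206-3p with 251 and 306 reads and miR-1a-3p with 160 and 245 reads, and before all others of the 56 and 60 miRNAs listed. For all miRNAs together on ND5 the ratio was 1.41 (1.34 to 1.48), and the share of miR-133a-5p in the peak went from 16.3% to 14.9%.

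The second site lay in Myot, which encodes myotilin, a protein of the sarcomeric Z-disc. Its highest peak, at chr18:44336913-44336992 in the control library and chr18:44336914-44337000 in the mimic library, held 28.2 and 54.3 reads of miR-133a-5p. With a neighbouring peak the site summed to 29.5 reads in the control library (19.4 to 41.6) and 59.4 in the mimic library (44.9 to 76.1), a ratio of 2.01 (1.28 to 3.29). In the highest peak miR-133a-5p was second in the control, after miR-22-3p with 31.3 reads, and first in the mimic, ahead of miR-22-3p with 28.3 reads. Its share of the peak was 24.2% in the control library and 39.5% in the mimic library. miR-133a-3p had 2.55 and 6.53 reads at the site. Reads of all miRNAs on Myot were 383 and 440, a ratio of 1.15 (0.999 to 1.32). The ratio at the site was higher, but the 2 counting intervals overlapped. The interval of the site also included the ratio of 1.48 of all miR-133a-5p reads. Neither miR-1a 5p arm had a peak in Myot in either library.

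Ribosomal RNA held the next sites. In mt-Rnr2, the mitochondrial 16S rRNA, 1 peak at chrM:1590-1740 in the control had 28.0 reads of miR-133a-5p (18.6 to 40.5) and its counterpart in the mimic had 34.2 (23.5 to 47.5). This was 0.358% and 0.394% of the reads of the peak, where miR-1a-3p alone had 5062 and 6016 reads. On Rn18s-rs5, a pseudogene copy of 18S rRNA on chromosome 17, the 3 members together had 75.7 reads in the control library and 110 in the mimic library, a ratio of 1.45 (1.07 to 1.97). For all miRNAs together the ratio there was 1.07 (1.04 to 1.09). Its highest miR-133a-5p site, at chr17:39846891-39846936 in the control, held 16.9 reads in the control library and 27.8 in the mimic library beside 1278 and 1154 reads of miR-133a-3p. Reads of this copy cannot be told apart from those of the ribosomal RNA genes.

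Of the other nuclear genes, Hspb6, a small heat shock protein of muscle, had 3.0 reads in the control library and 9.0 in the mimic library (chr7:30554625-30554778 in the control), a ratio of 3.0 (0.749 to 17.2). Tnnc2, which encodes fast skeletal troponin C, had 2.97 reads in the control library and 12.1 in the mimic library (chr2:164779663-164779687 in the control), a ratio of 4.08 (1.08 to 22.1). Both intervals included the ratio of 1.12 between library totals. At Tnnc2 the 5p arm took 43.1% of the peak in the control library and 67.0% in the mimic library, and the gene had 299 and 219 reads of all miRNAs. G3bp1, a stress granule protein, had fewer reads in the mimic, with 7.66 reads in the control library and 2.69 in the mimic library at chr11:55499694-55499779, and no miR-133a-3p read in either. Aldoart1, a retrogene related to aldolase A, had 8.99 and 7.56 reads, and Mylf-ps, a pseudogene related to the fast regulatory light chain, had 6.81 and 5.12 reads. Both are near-copies of highly expressed muscle genes, so their reads may belong to the parent genes.

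Over all 3 members, 1449 sites were found when overlapping peaks of 1 miRNA were joined, and 185 of them were seen in both libraries. Only 20 sites had at least 3 reads in both, 15 of miR-133a-5p, 3 of miR-1a-1-5p and 2 of miR-1a-2-5p, and 12 of these had more reads in the mimic. Hipk1, a nuclear kinase, and Lrrc30, a leucine-rich repeat protein, were among them with nearly equal values, 4.0 and 4.0 reads for Hipk1 and 3.54 and 3.70 for Lrrc30. Acta1, skeletal actin, had 5.44 and 4.09 reads at the site with the most reads among those found in both libraries.

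**Figure D2:**
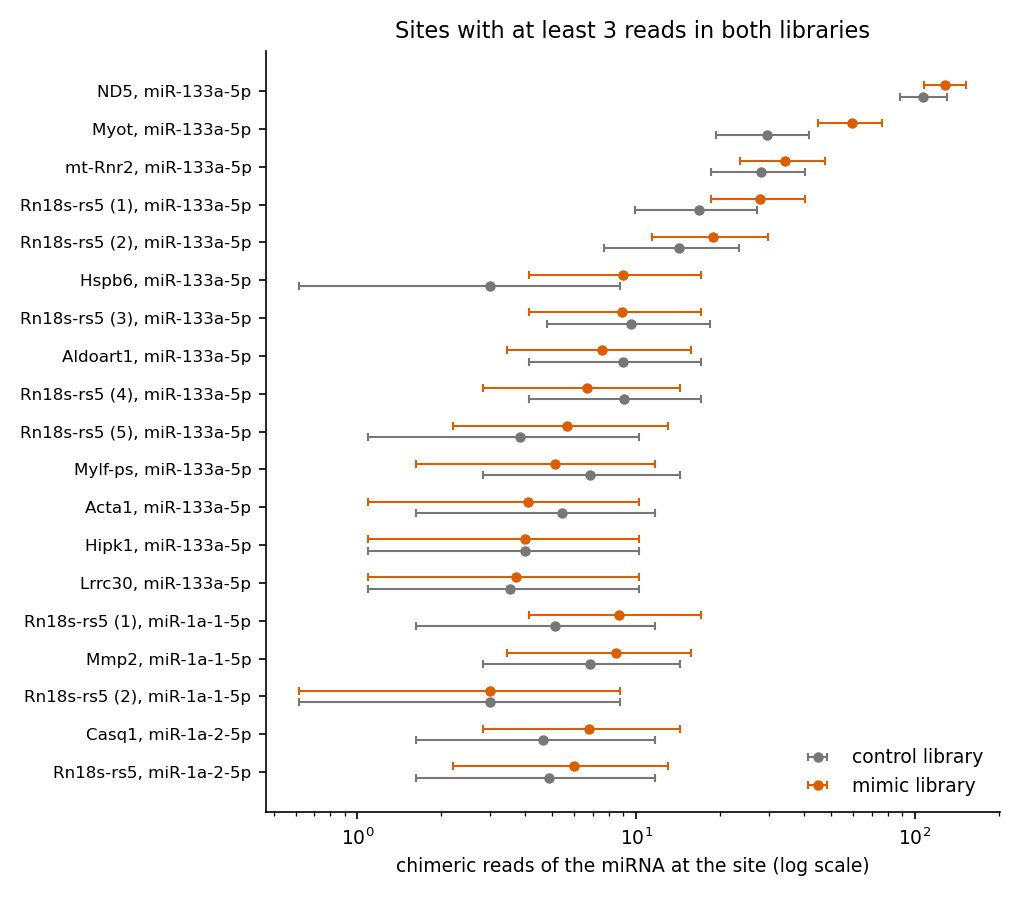
Chimeric reads (log scale) of the named 5p arm at 19 of the 20 sites with at least 3 reads in both libraries, with 95% Poisson intervals of counting error (grey, control; orange, mimic). The ND5 and Myot sites lie at the top, and only at Myot do the intervals of the libraries not overlap (19.4 to 41.6 against 44.9 to 76.1); numbers in brackets separate sites of 1 gene.

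In many peaks the 5p arm had more reads than its 3p partner, mostly where that partner was not listed. In the control, 223 of 482 miR-133a-5p peaks had more reads of the 5p than of the 3p arm, 166 of them because miR-133a-3p was not listed there. In the mimic this was so for 351 of 756 peaks, 265 of them without miR-133a-3p. Yet miR-133a-3p was listed in 65.6% and 64.9% of miR-133a-5p peaks, against 35.6% and 37.5% of all peak intervals. For miR-1a-1-5p the 5p arm was ahead of miR-1a-3p in 66 of 106 control and 81 of 140 mimic peaks, and for miR-1a-2-5p in 44 of 72 and 64 of 122. Here too miR-1a-3p was listed more often than in all peak intervals, where its share was 26.3% and 29.0%. It was listed in 53.8% and 55.0% of miR-1a-1-5p peaks and in 47.2% and 60.7% of miR-1a-2-5p peaks. Most miR-133a-5p peaks were weak, as 63.7% of them in the control library and 65.3% in the mimic library held less than 1 read.

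**Figure D3:**
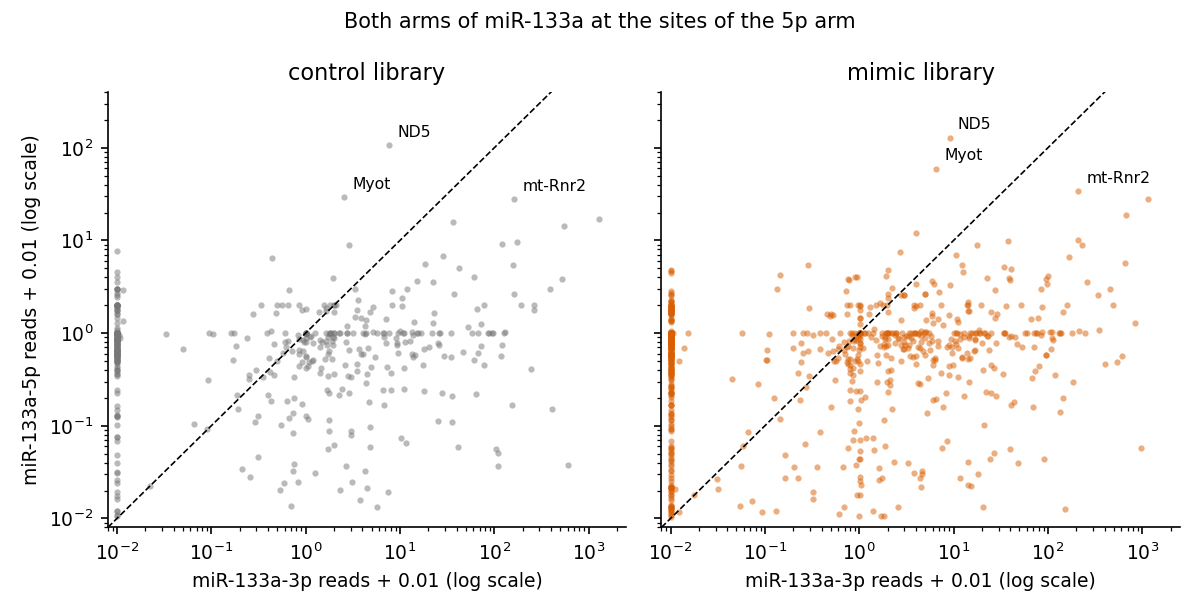
Reads of miR-133a-5p against reads of miR-133a-3p at each site of miR-133a-5p in the control (left) and mimic library (right), both with 0.01 added and on log scales, the dashed line marking equal reads. ND5 and Myot lie far above the line in both libraries, mt-Rnr2 lies below it, and sites without the 3p arm form the column at the left.

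At 14 sites no other miRNA had more reads than the 5p arm in either library, and 7 of them had no read of the matching 3p arm in either library. They ran from 0.797 to 8.99 reads in the control and from 0.792 to 8.44 in the mimic. The miR-1a-1-5p site of Mmp2, which encodes the matrix-degrading gelatinase A, was the only one of a miR-1a arm. It lay at chr8:92836948-92837037 in the control and held 6.81 reads in the control library (2.81 to 14.4) and 8.44 in the mimic library (3.45 to 15.8), or 67.3% and 83.9% of all reads of the peak. miR-1a-3p had 0.943 reads there in the control library and none in the mimic library. The miR-133a-5p sites of this kind included 3 picked here after their values were seen. Ccnd3, the G1 cyclin D3, had 4.59 reads in the control library and 1.81 in the mimic library. Srrm2, a splicing cofactor, had 3.0 and 2.59 reads, and Hs6st1, a heparan sulfate sulfotransferase, had 3.0 and 2.18 reads. In Srrm2 and Hs6st1 no other miRNA was listed in the mimic peak.

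The miR-1a 5p arms were weak at nearly all sites, and several of their highest peaks lay in muscle structural genes. The highest site of miR-1a-2-5p outside ribosomal RNA lay in Casq1, calsequestrin of the sarcoplasmic reticulum, at chr1:172219477-172219592 in the control. It held 4.64 reads of miR-1a-2-5p in the control library and 6.79 in the mimic library, and the same peak held 3.25 and 2.96 reads of miR-1a-1-5p. Mybpc1, a myosin-binding protein of slow fibres, had 2.04 reads of miR-1a-1-5p in the control library and 6.0 in the mimic library. Neb, nebulin of the thin filament, had 0.918 and 4.20 reads of miR-1a-2-5p at its highest site, and Slc25a4, the ADP/ATP carrier of the inner mitochondrial membrane, had 0.824 and 3.89 reads. Myh1, the fast IIx myosin heavy chain, had a peak of 5.89 reads of miR-1a-1-5p and 2.61 reads of miR-1a-2-5p in the mimic and none of either at that place in the control, where no miRNA had a peak.

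Some sites had fewer reads in the mimic. Tpm1, a tropomyosin of the thin filament, had 2.82 reads of miR-1a-2-5p in the control library and 0.149 in the mimic library. Snw1, a splicing and transcription cofactor, had 2.48 reads of miR-1a-1-5p in the control, where it led the peak with 71.2%, and none in the mimic. Sdhb, the iron-sulfur subunit of succinate dehydrogenase, had 2.0 reads of miR-1a-1-5p, and Otud1, a deubiquitinase, had 2.0 reads of miR-1a-2-5p, both in the control alone. All 4 control values were under 3 reads, so a loss was not detectable at this depth. A pair of miR-133a-5p sites with higher values had a peak in the control alone. Atp2a1 had 6.5 reads at chr7:126450469-126450487 in the control (2.81 to 14.4), where miR-133a-5p led the peak, and Acta1 had 5.60 reads at chr8:123892080-123892102 (2.20 to 13.1). In the mimic no miRNA had a peak at either place, so no ratio is given. Cnn3, calponin 3, a known target of the 3p arm, had 2.0 reads of miR-1a-2-5p in both libraries beside 14.5 and 16.7 reads of miR-1a-3p.

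The miR-1a 5p arms often shared a peak. In the control, 22 of the 72 miR-1a-2-5p peaks also listed miR-1a-1-5p, or 30.6% (20.2 to 42.5), while 0.511% of all peak intervals listed it. In the mimic it was 31 of 122, or 25.4% (18.0 to 34.1), against 0.640%. In peaks with at least 10 miRNAs the share was 44.4% against 3.56% in the control and 34.7% against 3.92% in the mimic. All 22 and 31 shared peaks, of any size, held 50.3% and 47.5% of all miR-1a-2-5p reads. The reads of both names were equal in only 1 of 22 shared peaks in the control and 2 of 31 in the mimic, and they were unequal at Casq1. Whether 1 miRNA was listed under both names was not tested.

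The members sat in crowded peaks, and this bears on what else was found with them. The median number of miRNAs in a peak was 8 for miR-133a-5p, 9.5 for miR-1a-1-5p and 10.5 for miR-1a-2-5p in the control, and 7, 9 and 13 in the mimic. Counted the same way, both 3p arms had a median of 4 in either library. miR-133a-5p shared its peak with miR-133a-3p in 65.6% of cases in the control library (61.1 to 69.8) and 64.9% in the mimic library (61.4 to 68.4), while 35.6% and 37.5% of all peak intervals listed miR-133a-3p. miR-1a-1-5p shared its peak with miR-1a-3p in 53.8% and 55.0%, and miR-1a-2-5p in 47.2% and 60.7%, against 26.3% and 29.0% of all peak intervals. In peaks with at least 10 miRNAs the gap was narrower, with 92.3% against 80.0% for miR-133a in the control and 95.8% against 83.4% in the mimic. In peaks with fewer miRNAs, miR-133a-5p was with miR-133a-3p in 43.1% against 32.2% and in 43.2% against 33.8%. miR-1a-1-5p was with miR-1a-3p in 26.4% against 23.2% and in 28.0% against 25.5%. For miR-1a-2-5p, of which 36 and 47 such peaks were left, it was 13.9% against 23.2% and 23.4% against 25.5%.

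**Figure D4:**
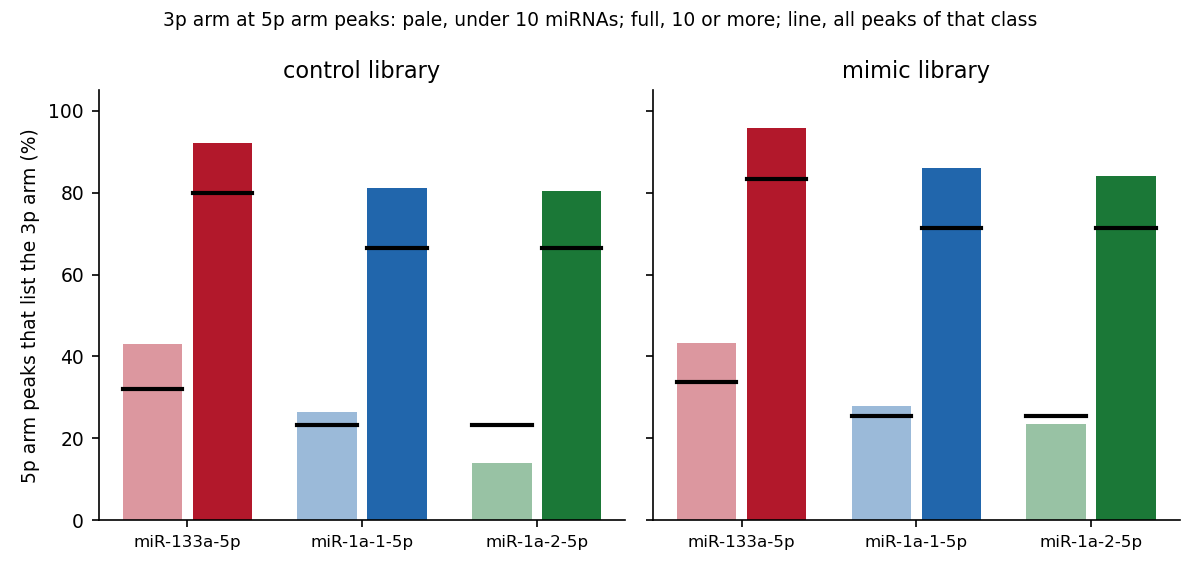
Percent of peaks of each 5p arm that also list the 3p arm of its locus, for peaks with fewer than 10 miRNAs (pale bars) and with 10 or more (full bars), and the same percent over all peaks of that class (black lines), in the control and mimic library. In crowded peaks all bars lie above the lines (92.3% against 80.0% for miR-133a-5p in the control), and in the others miR-1a-2-5p lies below them (13.9% against 23.2% in the control).

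The peaks of the 5p arms were found again in the mimic at shares inside the range of other miRNAs. Of the control peaks of miR-133a-5p, 33.4% (29.2 to 37.8) overlapped a peak of the same arm in the mimic, for miR-1a-1-5p it was 24.5% (16.7 to 33.8) and for miR-1a-2-5p 29.2% (19.0 to 41.1). The median of the 148 background miRNAs was 24.5%, with 90% of them between 12.2% and 42.2%, while miR-1a-3p reached 49.95% and miR-133a-3p 51.0%. Strong peaks came back more often, with 25 of 29 miR-133a-5p peaks of at least 3 reads, 4 of 4 for miR-1a-1-5p and 2 of 2 for miR-1a-2-5p. At the peaks found in both libraries, the median log2 ratio of mimic over control reads was 0.35 for miR-133a-5p over 148 pairs (0.00 to 0.74), 0.58 for miR-1a-1-5p over 23 pairs (-0.20 to 1.0) and 0.46 for miR-1a-2-5p over 18 pairs (0.00 to 1.48). All 3 intervals reached 0 or passed it. Over 99 miRNAs with at least 20 such pairs the median of the medians was 0.00. Of these, 4 were above the median of miR-133a-5p, miR-1a-1-5p among them, and 1 was above that of miR-1a-1-5p. miR-1a-2-5p, with 18 pairs, did not reach the minimum of 20 and was not placed among them.

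Target genes numbered 385 in the control library and 566 in the mimic library, or 5.78% and 8.14% of the genes with a peak of any miRNA, and 155 genes were in both. This was 40.3% of the control genes and 27.4% of the mimic genes. Among genes with at least 100 reads of all miRNAs, 51.5% had a 5p arm peak in the control library and 54.5% in the mimic library, so having such a peak was common in genes with many reads. All 3 members had peaks in both libraries in 9 genes, which were Myh1 and Myh4, fast myosin heavy chains, Mylpf, the fast regulatory light chain, Neb, Tpm1, Ttn, the giant protein titin, Nrap, an anchor of actin filaments, and the ribosomal Rn18s-rs5 and mt-Rnr2.

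Among 25 genes with at least 10 reads of the 5p arms over both libraries together, 18 had more of them in the mimic, and the median ratio was 1.42 beside 1.14 for all miRNAs on the same genes. On Myh1 the 5p arms had 9.25 and 49.6 reads, a ratio of 5.36 (2.7 to 12.8), while all miRNAs together had 6380 and 11359 reads, a ratio of 1.78. The Myh genes are near-identical in parts, so reads may be split between them, and Myh4 had 7.95 and 11.3 reads of the 5p arms. Ttn had the most peaks of the 5p arms, 42 in the control library and 68 in the mimic library, with 29.5 and 58.7 reads, a ratio of 1.99 (1.28 to 3.29) beside 1.35 for all miRNAs. Tnnt3, fast troponin T, had 2.0 and 10.5 reads, a ratio of 5.23 (1.07 to 46.9). Atp2a1, the calcium pump SERCA1 of fast fibres, had 12.3 and 3.06 reads, a ratio of 0.249 (0.0453 to 0.926), while all miRNAs on the gene had 1243 and 1281 reads. It was the only 1 of the 25 genes whose interval lay below 1. The intervals of 6 genes lay above 1, but only those of 3 genes, Myot, Ttn and Myh1, lay above the ratio of 1.12 between library totals. Over all their peaks, the 3 arms together had a ratio of 1.496. This ratio lay inside the intervals of Myot and Ttn, and only the interval of Myh1 lay above it.

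In the thick filament and M-band list, a 5p arm peak was found in 9 of 13 genes in the control and in all 13 in the mimic. Only 5 and 9 of them had such a peak of at least 1 read. Over all genes with a peak of any miRNA, 5.78% and 8.14% had a 5p arm peak, and of those with at least 100 reads 51.5% and 54.5%. The list had 1.52 reads of the 5p arms per 1000 reads of all miRNAs in the control library and 4.30 in the mimic library. Over all genes these values were 3.51 and 4.70. Myh1 held 49.6 of the 95.1 reads of this list in the mimic, and Myom1, a cross-linker of the M-band, had no read in the control library and 8.40 in the mimic library. In the thin filament list, 7 of 13 genes in the control and 9 of 13 in the mimic had a peak, with 4.37 and 5.52 reads per 1000. In the titin and Z-disc list it was 7 and 9 of 12 genes, with 3.23 and 4.89 reads per 1000, led by Ttn and Myot. Des, the intermediate filament protein desmin, had 4.01 and 7.77 reads.

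Calcium handling genes had fewer reads of the 5p arms per 1000 in the mimic. A 5p arm peak was found in 6 of 14 genes in the control and 7 of 14 in the mimic, with 10.1 and 6.69 reads per 1000. Atp2a1 alone gave 12.3 of the 28.7 reads of the list in the control library and 3.06 of 22.1 in the mimic library, while Casq1 had 7.89 and 10.1 reads. Glycolysis and glycogen genes had 5 and 7 of 13, with 2.38 and 2.83 reads per 1000, and the energy buffer list had 2 of 4 in each library, 1 of them shared, with 2.98 and 2.16 reads per 1000, mainly from Ckm, muscle creatine kinase, with 5.30 and 5.55 reads, a gene named after its values were seen. Collagens and matrix had 4 and 7 of 15 genes at 0.892 and 1.69 reads per 1000, below the value over all genes, with Col1a1, the main fibrillar collagen, at 5.03 and 5.0 reads. The mitochondrial genome had 8 of 37 genes in each library, 7 of them shared, while only 13 and 12 of the 37 had a peak of any miRNA. The list had 4.90 and 5.57 reads per 1000, mostly from ND5 and mt-Rnr2. CYTB, the cytochrome b of complex III, had 0.977 reads in the control library and 7.43 in the mimic library, and COX1, a core subunit of complex IV that was named after its values were seen, had 1.09 and 6.70. ND1 went the other way, with 5.05 reads in the control library and 1.0 in the mimic library. All miRNAs together had 3816 and 5306 reads on ND1. Of 14 known targets of the 3p arms, 1 had a 5p arm peak in the control library and 3 in the mimic library, with 5.42 and 12.8 reads per 1000. These were 2.0 and 4.39 reads in all, on Cnn3 and, in the mimic alone, on Igf1, a growth factor of muscle, and Cdc42, a small GTPase, which were named after their values were seen. The list had 11 genes with a peak of any miRNA in each library, and over all such genes 5.78% and 8.14% had a 5p arm peak.

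**Figure D5:**
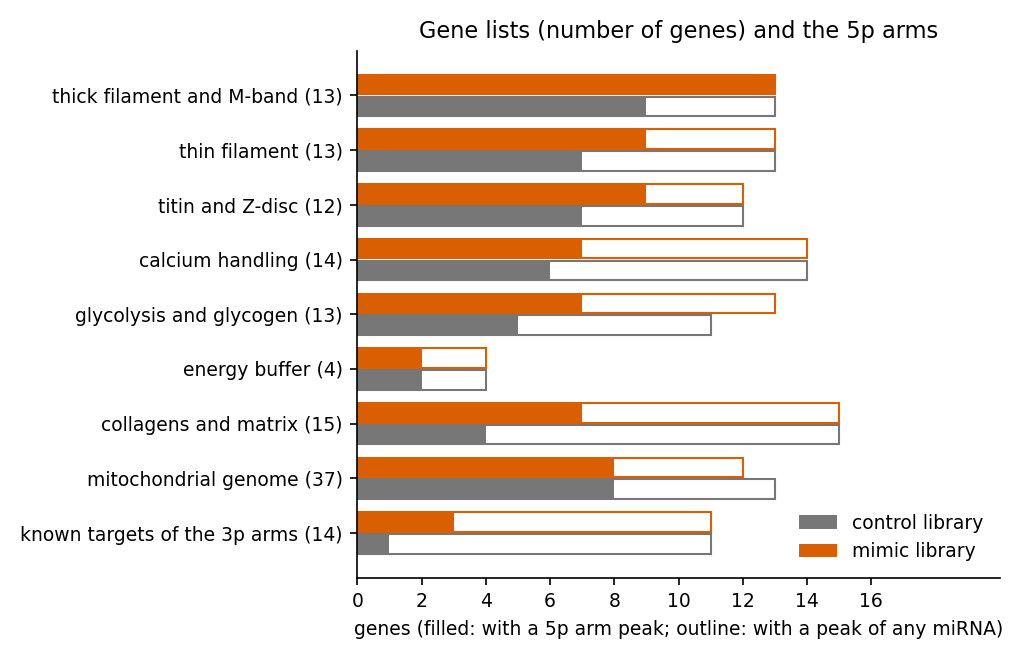
Number of genes in each fixed list with a peak of a 5p arm (filled bars) and with a peak of any miRNA (outlines) in the control (grey) and mimic library (orange), list sizes in brackets. All 13 thick filament and M-band genes had a 5p arm peak in the mimic and 9 in the control, while 1 and 3 of the known targets of the 3p arms did.

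The pattern of miR-133a-5p over peaks was most like those of the miR-378 family. The likeness was the cosine of log2(reads + 1) over all peak intervals of a library, averaged over both libraries, where 1 means the same pattern and 0 no peak in common. For miR-133a-5p it was 0.325 with miR-378b, 0.305 with miR-378a-3p and 0.269 with miR-378c, while its own partner miR-133a-3p was 9th with 0.227. The sequences of miR-378b (chr11:88352839-88352858, plus strand) and miR-378c (chr14:46954905-46954925, minus strand) are given with the seed in capitals, since they show how alike these family members are. Their seeds are not the same, UGGACUU in miR-378b and CUGGACU in miR-378c, which has 1 more base at its 5′ end.
miR-378b: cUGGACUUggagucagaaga
miR-378c: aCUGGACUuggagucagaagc
At least 1 of these 3 names was listed in 48.3% of miR-133a-5p peaks in the control library (43.8 to 52.9) and 48.9% in the mimic library (45.3 to 52.6), against 13.7% and 16.0% of all peak intervals. In peaks with at least 10 miRNAs it was 82.7% against 56.0% in the control and 83.7% against 64.1% in the mimic. For miR-1a-1-5p the shares were 48.1% and 47.1%, and for miR-1a-2-5p they were 41.7% and 57.4%. At the main sites of miR-133a-5p itself the family was not strong, with 2.33 and 11.6 reads in the ND5 peak and 8.47 and 11.96 in the highest Myot peak, while at Hspb6 it gave 247 and 345 reads.

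The miR-1a 5p arms were most like each other, with a likeness of 0.420. For miR-1a-1-5p the next were let-7d-3p with 0.221 and miR-451a with 0.208. For miR-1a-2-5p they were miR-142a-5p with 0.192 and miR-140-5p with 0.190. Their likeness to their own 3p arm was lower, 0.109 for miR-1a-1-5p and 0.110 for miR-1a-2-5p. All these values share the same libraries and the same crowded peaks, and they are given as a description over peaks, which are not independent replicates.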

How the data were processed

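Per the labels and methods, Ago2 eCLIP with miRNA-target ligation was made from 1 control-injected and 1 mimic-injected plantaris, and an amplification with a miR-1 primer is also described. The deposited values are estimated counts of chimeric reads for each peak and miRNA, and the origin of their fractions and any handling of multimapped names were not given in the sources used here. The submitters' processing notes name UMI-tools 1.1.1, cutadapt 3.2, STAR 2.7.7a, Bowtie 1.2.3 and HOMER 4.11. The methods name mm9 and CLIPper, but the coordinates fit GRCm38 (mm10).

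The members and gene lists were chosen with earlier results of these data known. Lines of the 3 names were taken without a minimum. Target genes came from RefSeq gene spans (GRCm38.p6, 49980 genes), taking the span that covered most of a peak on the same strand, and spans without a strand only where no other covered it. Exon, intron and UTR positions were not analysed here. Peaks of 1 miRNA overlapped with at least 1 shared nucleotide, and pairs were each other's largest overlap. Named genes were those of the 5 highest peaks of each member and library outside mitochondrial and rRNA genes, the mitochondrial or rRNA gene with the most reads, genes with a site of at least 3 reads in both libraries, genes with all 3 members in both libraries, and listed genes with at least 3 reads. One gene of this rule is not reported here. Depth was 232408 and 259207 chimeric reads. Intervals were exact at 95% (Clopper-Pearson for shares, Poisson or conditional binomial for reads and ratios, and order statistics for medians). Those of reads and ratios cover counting error only, and those of shares and medians take peaks as independent. With 1 library per group no test was made. Python 3.11.15, pandas 2.3.3, SciPy 1.17.1 and NumPy 2.4.6 were used, and overlap, gene assignment and intervals were tested on simulated data.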

Additional observations from a re-analysis of the deposited data

How the results depend on the processing

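The ratio of mimic over control reads stayed above 1 for each 5p arm and for their sum under all 26 alternatives computed for it. Divided by library totals, it was 1.32 for miR-133a-5p and 1.34 for the 3 arms together. With a minimum of 3 reads it was 2.03 for miR-1a-1-5p and 3.19 for miR-1a-2-5p, over very few peaks. The change of the 5p per 3p arm was 1.41 for miR-133a-5p with peaks in place of reads, and 2.37 for miR-1a-2-5p with a minimum of 3 reads. The share of peaks of the 3 arms with a minimum of 1 read was 0.531% for the control library and 0.769% for the mimic library, 0.323% and 0.487% with 3 reads, and 0.349% and 0.469% as a share of reads. Of the control peaks of the 3 arms, 31.5% were overlapped in the mimic. Asking for 50% reciprocal overlap gave 25.3%, counting from the mimic library gave 20.2%, and the share was 38.9% with a minimum of 1 read and 60% with 3 reads. Peaks that list the own 3p arm were 61.7% and 63.1% of the control and mimic peaks, and 53.8% and 56.0% with a minimum of 1 read. Target genes in the control, the mimic and both were 161, 234 and 68 with a minimum of 1 read, 24, 40 and 13 with 3 reads, and 91, 153 and 47 with at least 2 peaks per gene. A change of direction could be seen only for the read ratios and the change of miR-133a-5p per miR-133a-3p, whose intervals excluded 1. None of their alternatives changed direction. The other results had no reference value or an interval that reached it. Of the 136 alternatives for 35 results, 60 stayed within the counting interval (for counts of genes, within 1.5 times) and 76 moved past it. The cause of these moves was not tested.

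With 1 library per group, depth limits most single sites, since values under 3 reads have wide counting intervals. No paired analysis was possible because the groups compared share only 1 replicate number, with 1 library in each. The search for seed matches in the peaks, planned with 6 and 7 bases, was not run, since no genome of the files' build was used here.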

Other observations

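The 5p arms of related muscle miRNAs had few reads in both libraries. miR-133b-5p had 5.14 reads in 15 control peaks and 6.26 reads in 10 mimic peaks, although miR-133b-3p had 12045 and 12736 reads. Of the miR-133b-5p peaks, 5 of 15 in the control and 9 of 10 in the mimic also listed miR-133a-5p, against 2.32% and 3.46% of all peak intervals. Those on Tnnc2 in the mimic held only 0.00201 to 0.0228 reads of miR-133b-5p each. The highest value of miR-133b-5p was 1.96 reads, on Myh4 in the mimic. miR-206-5p had 1.02 and 2.82 reads beside 15264 and 14449 reads of miR-206-3p, and miR-1b-5p had 1 read in each library. In reads per 100 reads of the 3p arm, miR-133b-5p gave 0.0427 and 0.0491 against 1.57 and 1.89 for miR-133a-5p. miR-22, another miRNA of muscle, gave 2.65 (2.22 to 3.14) and 3.66 (3.19 to 4.18) reads of the 5p arm per 100 of the 3p arm.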
